A study of Homo sapiens with 6 samples.

Results

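The genes that restrain the growth-controlling kinase complex mTORC1 were compared between HT-1080 cells exposed to an IRAK4 inhibitor and cells exposed to solvent. They were taken by gene symbol from the deposited count tables: the sestrins SESN1, SESN2 and SESN3, DDIT4 (which encodes REDD1) and its paralog DDIT4L, DEPTOR, TSC1, TSC2 and FLCN. All 9 symbols were among the 20683 genes listed, and 8 of them had enough counts to be tested. HT-1080 is an established human fibrosarcoma line with an activating NRAS mutation. The cells received either SLV-8472-01, the IRAK4 inhibitor, labelled at 5 mM, a concentration that could not be checked here, or 0.1% DMSO, and RNA was taken after 24 h. Whether the cells given inhibitor also received DMSO is not stated in the labels. Each group had 3 libraries, which the series calls biological replicates, from this 1 line and from 1 dose and 1 time.

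mTORC1 promotes protein synthesis and cell growth when amino acids, energy and growth factors are sufficient. Sestrins are stress-induced proteins that hold back the amino acid branch by acting on the GATOR complexes upstream of the Rag GTPases, and SESN2 also serves as a leucine sensor. REDD1 acts through the TSC complex, in which TSC1 stabilises TSC2, the GTPase-activating protein that switches off RHEB, the direct activator of mTORC1. DEPTOR binds mTOR itself, and folliculin, the product of FLCN, acts on the Rag GTPases at the lysosome, where its role is not that of a simple brake. Transcription of SESN2 and DDIT4 is known to rise in nutrient and endoplasmic reticulum stress, and that of SESN3 in response to FOXO factors. The products of TSC1 and TSC2 are known to be controlled largely at the protein level. The 5 sestrin and DDIT4-family genes are called inducible below and TSC1, TSC2 and FLCN constitutive. These are working labels and were not derived from the counts.

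Of the inducible genes, SESN2 and DDIT4 both fell, to levels 4.25-fold and 3.81-fold below DMSO, while their relatives SESN1 and SESN3 had group means within a few percent of each other. No gene of the constitutive class passed the test, and DDIT4L was almost without counts. By edgeR's quasi-likelihood test with Benjamini-Hochberg adjustment over 11216 genes, 2 of the 8 tested brake genes were lower and none was higher in the inhibitor libraries. Over all tested genes 3.87% changed in either direction, 1.92% were lower and 1.95% higher.

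The upstream sequences of SESN2 and DDIT4, the pair that fell, are shown because they let their starts be compared with that of a constitutive gene, TSC2. They are the 250 bases before each annotated start in RefSeq (build GRCh38.p14), at chr1:28259268-28259517 for SESN2, chr10:72273674-72273923 for DDIT4 and chr16:2047735-2047984 for the first of the 2 annotated starts of TSC2, all on the plus strand. The submitters' processing notes name hg19, so these positions belong to the sequences and not to the counts. Capitals mark matches, on either strand, to the CCAAT box (CCAAT, read as ATTGG on the other strand), the hypoxia response core (ACGTG), the CLEAR core bound by TFEB and its relatives (TCACGTGA, which contains ACGTG) and the core of the composite element of ATF4 and C/EBP factors (TGATGNAA). The FOXO core GTAAACA was searched as well.
SESN2: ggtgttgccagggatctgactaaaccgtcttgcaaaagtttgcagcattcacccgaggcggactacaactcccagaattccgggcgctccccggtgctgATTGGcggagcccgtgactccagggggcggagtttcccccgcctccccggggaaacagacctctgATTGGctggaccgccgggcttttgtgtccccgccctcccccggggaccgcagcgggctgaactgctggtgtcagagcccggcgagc
DDIT4: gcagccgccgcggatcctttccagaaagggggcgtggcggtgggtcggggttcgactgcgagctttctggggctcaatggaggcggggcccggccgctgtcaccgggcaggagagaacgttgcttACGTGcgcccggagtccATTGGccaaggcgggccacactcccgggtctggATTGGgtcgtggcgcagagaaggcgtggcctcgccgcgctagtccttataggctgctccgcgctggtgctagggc
TSC2: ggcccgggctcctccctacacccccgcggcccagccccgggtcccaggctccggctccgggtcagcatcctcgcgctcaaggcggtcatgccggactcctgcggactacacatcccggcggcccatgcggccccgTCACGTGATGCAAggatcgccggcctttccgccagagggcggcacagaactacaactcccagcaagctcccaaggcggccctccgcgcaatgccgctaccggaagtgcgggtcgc

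SESN2 and DDIT4 each held 2 CCAAT boxes, all 4 in the ATTGG reading, with first bases at -151 and -86 from the start of SESN2 and at -108 and -75 from that of DDIT4. SESN1, which did not pass the test, had 1 such box in each of 2 of its 3 annotated windows. Of 35116 annotated starts, 9.53% had at least 2 in a window of this length and 32.0% had at least 1. DDIT4 also held 1 ACGTG, found in 18.5% of all windows. The TSC2 window shown held 2 matches to it, 1 on each strand, both inside its CLEAR core. The ATF4 composite core, present in 3.14% of windows, matched neither SESN2 nor DDIT4. Upstream sequence was examined for 8 of the 9 brake genes, with the untested DDIT4L among them and DEPTOR left out. Among their 11 windows the ATF4 core matched in 1, the window of TSC2 shown. There it overlapped the CLEAR core, present in 0.854% of windows. GTAAACA matched in none of the 11 windows, against 2.98% of all. Such matches are letters in a short window, and nothing on binding was measured here.

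SESN2, a leucine-binding sestrin, had 48.3, 50.8 and 37.3 CPM (the count as a share of the TMM-scaled library total, on the usual CPM scale) in inhibitor 1 to 3 and 200.3, 146 and 235 CPM in DMSO 1 to 3. All 3 DMSO values stood far above all 3 inhibitor values. The group means were 45.5 ± 7.17 and 194 ± 45.0 CPM (SD, n = 3). This gave a log2 fold change, inhibitor minus DMSO, of -2.09 (SE 0.178, 95% interval -2.47 to -1.71, edgeR adjusted p = 2.31e-05), a level 4.25-fold lower. Only 8 of the other tested genes had a more negative fold change. In a culture of 1 cell type this is the RNA of the whole dish, and fewer cells that express the gene cannot be told apart from less RNA per cell.

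DDIT4, the REDD1 gene, had 49.1, 53.5 and 51.0 CPM in inhibitor 1 to 3 and 256, 176 and 154 CPM in DMSO 1 to 3. The inhibitor values lay close together and the DMSO values were spread, with DMSO 1 the highest and no overlap between groups. The means were 51.2 ± 2.20 and 195 ± 53.5 CPM, and the log2 fold change was -1.93 (SE 0.172, 95% interval -2.30 to -1.56, edgeR adjusted p = 2.31e-05), a level 3.81-fold lower. In rank of fold change it was the twelfth lowest of the tested genes.

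**Figure D1:**
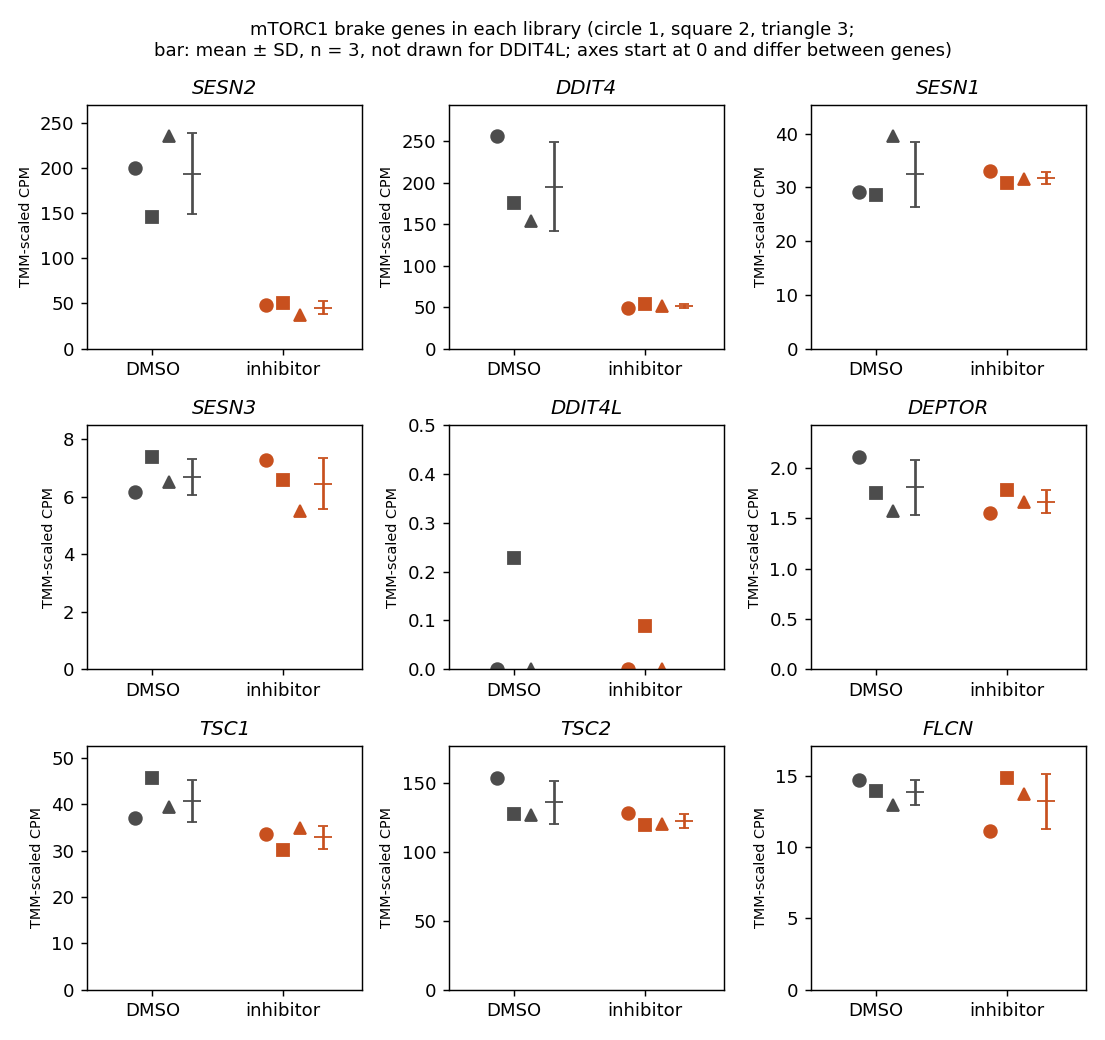
Scaled CPM of the 9 genes in each library (vertical axes in TMM-scaled CPM, starting at 0 and differing between panels; grey for DMSO, orange for inhibitor; marker shape for the replicate number; bars for mean ± SD, n = 3). No bar is drawn for DDIT4L. SESN2 stood at 37.3 to 50.8 CPM in the inhibitor libraries and at 146 to 235 CPM in the DMSO libraries, while the SESN1, SESN3, DEPTOR, TSC2 and FLCN values of the 2 groups overlapped.

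For both genes the difference between groups exceeded the spread within them. The gap between the lowest DMSO and the highest inhibitor library was 1.52 on the log2 CPM scale for each gene. The range within the DMSO group was 0.69 for SESN2 and 0.73 for DDIT4, wider than the median of 0.41 over all tested genes. Within the inhibitor group the range was 0.44 for SESN2 and 0.12 for DDIT4, against a median of 0.24. The order of the DMSO libraries differed between the genes: SESN2 was highest in DMSO 3, where DDIT4 was lowest.

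DMSO 3 stood apart from the other controls over all genes. Its median absolute log2 difference from the mean of the rest of its group was 0.286, against 0.122 to 0.231 for the other 5 libraries. Its deviations from the group mean correlated with transcript GC content across genes, which are not independent replicates (Spearman rho -0.484). The sign was opposite in DMSO 1 (0.526). Because deviations are taken from the mean of the group, the signs in its libraries are not independent of each other. Only genes with a mean count of at least 50 entered these correlations. DDIT4, TSC2 and FLCN, whose transcripts have 58.1%, 60.4% and 62.3% GC, were highest in DMSO 1 and lowest in DMSO 3 among the controls, as was DEPTOR at 49.9%. SESN1, at 41.9%, was highest in DMSO 3. SESN2, at 59.5%, was also highest in DMSO 3. The part of GC content in these orders was not tested gene by gene. With the GC trend of each library removed, SESN2 was at -2.06 and DDIT4 at -1.88, and without DMSO 3 they were at -1.94 and -2.09. Library totals ran from 9162281 to 13184553 counts.

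SESN1, a relative of SESN2 in the same family, had 33.0, 30.8 and 31.5 CPM in inhibitor 1 to 3 and 29.2, 28.7 and 39.5 CPM in DMSO 1 to 3. All 3 inhibitor values lay inside the DMSO range. The log2 fold change was -0.03 (SE 0.148, edgeR adjusted p = 0.951), and its 95% interval allowed an inhibitor level between 0.789 and 1.22 times that of DMSO. The sign turned without DMSO 3, to 0.12, and with library totals only or with library quality weights. None of these values was past the threshold.

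SESN3, the FOXO-responsive sestrin, was read at 53 to 97 counts per library. It had 7.26, 6.59 and 5.51 CPM in inhibitor 1 to 3 and 6.17, 7.38 and 6.52 CPM in DMSO 1 to 3, with the groups interleaved. The log2 fold change was -0.05 (SE 0.185, edgeR adjusted p = 0.922), and the 95% interval ran from 0.735 to 1.27 times the DMSO level. Its sign turned with library totals only and without inhibitor 3 or DMSO 2, with no value past the threshold. A change of the size seen in SESN2 lay outside the intervals of both SESN1 and SESN3, so depth was not the limit there.

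DDIT4L, the paralog of REDD1, had 1 count in inhibitor 2, 3 counts in DMSO 2 and none in the other 4 libraries. It was too rare to test. A count of 0 allows up to 3 counts in a library, or 0.234 to 0.337 CPM in those 4, and a difference below that could not be seen. These limits cover counting error only.

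DEPTOR, the mTOR-binding inhibitor, was close to the lower limit of the assay, with 14 to 27 counts per library. It had 1.55, 1.78 and 1.66 CPM in inhibitor 1 to 3 and 2.11, 1.75 and 1.57 CPM in DMSO 1 to 3, and the groups overlapped. Its log2 fold change was -0.14 (SE 0.283, edgeR adjusted p = 0.841). The 95% interval of 0.597 to 1.38 times the DMSO level is the widest of the 8 tested genes.

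TSC1, the scaffold of the TSC complex, had 33.5, 30.0 and 34.9 CPM in inhibitor 1 to 3 and 37.0, 45.7 and 39.5 CPM in DMSO 1 to 3. Every DMSO value was above every inhibitor value, by a gap of 0.08 on the log2 CPM scale. TSC1 thus had a log2 fold change of -0.31 (SE 0.135, unadjusted p = 0.0364, edgeR adjusted p = 0.221), so it did not pass over all genes. It did pass without DMSO 3 (-0.35, adjusted p = 0.0394) and in limma-voom with library quality weights (-0.41, adjusted p = 0.00765). In these 2 fits 21.9% and 23.2% of all tested genes were called.

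TSC2, the catalytic subunit of that complex, was counted at 1126 to 1971 per library. It had 128, 119 and 120.1 CPM in inhibitor 1 to 3 and 154, 128 and 127 CPM in DMSO 1 to 3. Inhibitor 1 lay just above DMSO 2 and DMSO 3, so the groups overlapped. Its log2 fold change was -0.15 (SE 0.123, edgeR adjusted p = 0.546), with an interval of 0.749 to 1.08 times the DMSO level. Within a library, the log2 ratio of TSC1 to TSC2 counts was -1.90 ± 0.108 with inhibitor and -1.74 ± 0.293 with DMSO (SD, n = 3), and the groups overlapped.

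FLCN, the folliculin gene, had 11.1, 14.9 and 13.7 CPM in inhibitor 1 to 3 and 14.7, 13.9 and 12.9 CPM in DMSO 1 to 3. Inhibitor 2 was the highest of the 6 libraries and inhibitor 1 the lowest. Its log2 fold change of -0.07 had an SE of 0.16 (edgeR adjusted p = 0.855), and the interval ran from 0.75 to 1.21 times the DMSO level. Its sign turned without inhibitor 1, at 0.04.

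**Figure D2:**
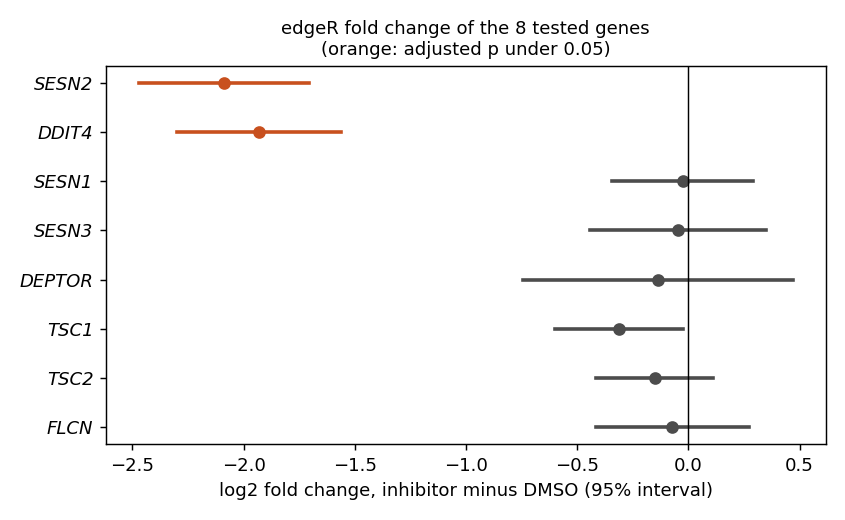
Log2 fold change, inhibitor minus DMSO, of the 8 tested genes with its 95% interval from edgeR (horizontal axis; orange for an adjusted p under 0.05, grey otherwise). The intervals of SESN2 (-2.47 to -1.71) and DDIT4 (-2.30 to -1.56) lie apart from those of the other 6 genes, of which that of TSC1 alone does not reach 0.

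Groups that did not overlap, with all inhibitor values below all DMSO values, were seen for 3 of the 8 tested genes, SESN2, DDIT4 and TSC1, against 11.8% of all tested genes, and 25.5% that did not overlap in either direction. Without adjustment 3 of the 8 had a p under 0.05, against 19.5% of all. The median log2 fold change was -0.99 over the 4 tested inducible genes and -0.15 over the 3 constitutive ones, and -0.0044 over all tested genes. The first of these medians falls in the gap between a pair near -2 and a pair near 0 and describes neither.

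Ratios of counts within a library do not depend on how libraries are scaled, and were used to compare the inducible pair with the other genes directly. The log2 ratio of SESN2 to SESN1 was 0.55, 0.72 and 0.24 in inhibitor 1 to 3 and 2.78, 2.35 and 2.58 in DMSO 1 to 3. The mean difference was -2.06. The log2 ratio of DDIT4 to TSC2 was -1.38, -1.16 and -1.24 in inhibitor 1 to 3 and 0.73, 0.46 and 0.28 in DMSO 1 to 3, a difference of -1.75. In both ratios the 2 groups lay far apart. Of 14 pairs computed, the 12 that set SESN2 or DDIT4 against SESN1, SESN3, DEPTOR, TSC1, TSC2 or FLCN were lower in every inhibitor library than in every DMSO library. Their differences ran from -2.06 to -1.59. The pairs share 2 numerators, which were the called genes, and 6 denominators that were not called, so this separation follows from that choice and is a description only. The ratio of SESN2 to DDIT4 overlapped between groups, at -0.18 ± 0.233 with inhibitor and -0.0031 ± 0.534 with DMSO (two-sided exact permutation p = 0.8, and 0.8 adjusted over the 14 pairs, where 3 against 3 libraries cannot go below 0.1). Because each gene is read through its own PCR product, the level of a ratio says nothing about which transcript was more abundant.

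**Figure D3:**
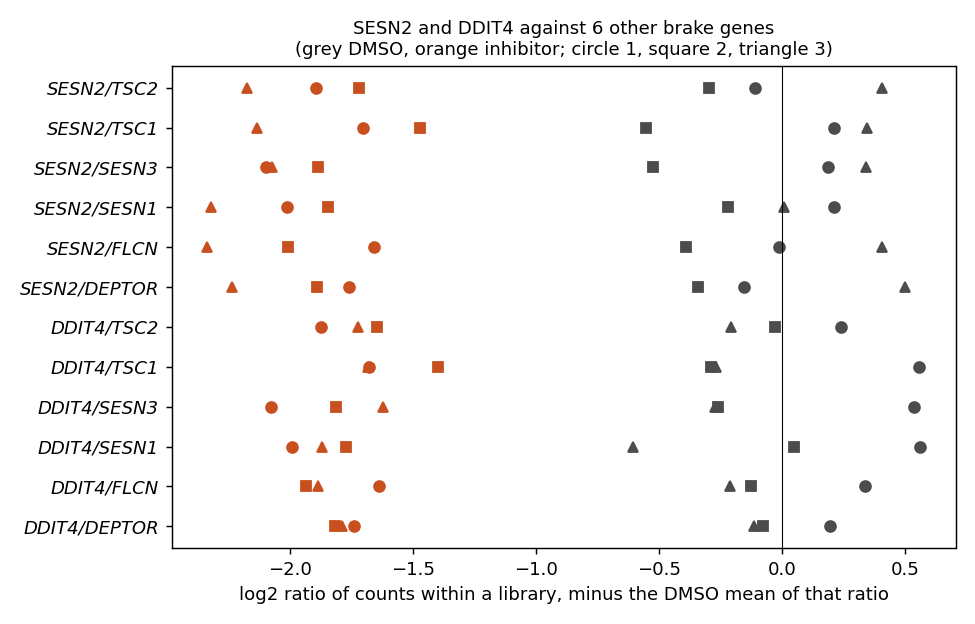
Log2 ratio of SESN2 or DDIT4 counts to those of 6 other brake genes within each library, less the DMSO mean of that ratio (horizontal axis; grey for DMSO, orange for inhibitor; marker shape for the replicate number). In all 12 ratios the inhibitor libraries lie to the left of the DMSO libraries, with mean differences from -2.06 to -1.59.

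The genes with the nearest profiles to SESN2 and DDIT4 were found over the 6 libraries, as the smallest root mean square difference of centred log2 CPM among 9055 genes with a mean of at least 5 CPM. Both genes were chosen for their fall, so other strong fallers come near them by construction. Nearest to SESN2 was ATF3, a transcription factor gene, at a distance of 0.182, followed by CTGF, ERRFI1, TRIB3 and ANKRD1 at 0.289 to 0.354. ATF3 had 3.27, 4.10 and 3.12 CPM in inhibitor 1 to 3 and 17.4, 15.6 and 18.7 CPM in DMSO 1 to 3, with the same order of DMSO libraries as SESN2. Nearest to DDIT4 was TRIB3, a pseudokinase gene, at 0.129, then GDF15, a secreted stress factor gene, at 0.159, and CTGF, GADD45A and PPP1R15A at 0.225 to 0.292. GDF15 had 216, 183 and 193 CPM in inhibitor 1 to 3 and 813, 641 and 495 CPM in DMSO 1 to 3, with the same order of DMSO libraries as DDIT4. SESN2 and DDIT4 were 0.348 apart, farther than 9 of these 10 neighbours.

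The rest of the mTORC1 pathway showed few calls. Of 56 tested genes in 4 lists 1 was higher and 1 lower, with a median log2 fold change of -0.0057. This is 3.57%, near the 3.87% of all genes. The core list, with the kinase, its partners and the lysosomal Rag and LAMTOR proteins, had no call among 15 genes, nor had the list of GATOR, KICSTOR and amino acid sensor genes among 15. Unadjusted p-values under 0.05 were held by 2 and 3 of their genes, against 19.5% of all tested genes. By DESeq2 these lists had 0 and 1 calls, and by unweighted limma-voom none. With quality weights they had 1 and 2, and without DMSO 3 they had 1 and 3. In the last 2 fits 23.2% and 21.9% of all tested genes were called. MTOR, the kinase gene, was at 48.7 ± 2.20 CPM with inhibitor and 50.8 ± 4.68 CPM with DMSO (log2 fold change -0.06, SE 0.126). RPTOR, which encodes the substrate-binding subunit raptor, was at 0.14 (SE 0.135), and RHEB, the GTPase that TSC2 acts on, at 0.10 (SE 0.129). For these 3 genes the groups overlapped.

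Among 11 partners of the TSC and FLCN complexes and AMPK subunits none passed by edgeR, DESeq2 or unweighted limma-voom on all 6 libraries. An unadjusted edgeR p under 0.05 was held by 2, against 19.5% of all tested genes. With quality weights the calls were 3 up and 2 down, and with DMSO 3 left out 2 in each direction. In these 2 fits 23.2% and 21.9% of all tested genes were called. TBC1D7, the third subunit of the TSC complex, had 16.3 ± 0.271 CPM with inhibitor and 19.7 ± 1.1 CPM with DMSO, without overlap (log2 fold change -0.28, SE 0.137, edgeR adjusted p = 0.279). FNIP1 and FNIP2 encode the folliculin partners. FNIP1 was at -0.11 (SE 0.116) and FNIP2 at 0.41 (SE 0.136, adjusted p = 0.112), with 30.3 ± 3.36 CPM against 22.8 ± 1.02 CPM and no overlap. Without DMSO 3, FNIP2 passed (0.43, edgeR adjusted p = 0.0161).

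Of 15 substrate and effector genes, EIF4EBP2 rose and TFEB fell, or 13.3% called against 3.87% of all tested genes. An unadjusted p under 0.05 was held by 6 of the 15, against 19.5% of all. DESeq2 called 2 higher and 3 lower, and 5.3% of all tested genes. EIF4EBP2, which encodes a translation repressor that mTORC1 phosphorylates, had 94.4, 97.6 and 82.2 CPM in inhibitor 1 to 3 and 65.5, 66.3 and 63.3 CPM in DMSO 1 to 3 (log2 fold change 0.49, SE 0.122, edgeR adjusted p = 0.0394). TFEB, a transcription factor of lysosome genes held in the cytoplasm by mTORC1, had 8.73, 8.73 and 9.98 CPM in inhibitor 1 to 3 and 12.7, 14.1 and 16.2 CPM in DMSO 1 to 3 (adjusted p = 0.0412). Neither group of values overlapped with its counterpart. Both calls rested on the full set of libraries. That of EIF4EBP2 was lost without any 1 of the libraries but DMSO 3 (adjusted p = 0.0538 to 0.231), and that of TFEB without DMSO 2 or any 1 inhibitor library (0.109 to 0.213), with library totals only (0.0566) and with the GC trend removed (0.0612). The count over the 56 genes was 0 without inhibitor 1, 2 or 3, 3 without DMSO 1 and 1 without DMSO 2. It was 14 without DMSO 3, 5 of these higher and 9 lower. Over all tested genes 1.1%, 0.87% and 1.32% were called without inhibitor 1, 2 and 3. Without DMSO 1, 2 and 3 these shares were 3.76%, 1.63% and 21.9%. Phosphorylation, and so mTORC1 activity, was not measured.

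Transcription factors that can act on the brake genes were lower in part: 5 of 15 fell and none rose (median log2 fold change -0.34), beside 1.92% lower over all tested genes. ATF4, the stress factor that induces both SESN2 and DDIT4, had 582, 432 and 461 CPM in inhibitor 1 to 3 and 858, 814 and 869 CPM in DMSO 1 to 3. In log2 terms it fell by 0.78 (SE 0.126, edgeR adjusted p = 0.00347), and the call was lost without inhibitor 2 (adjusted p = 0.0514). DDIT3, the gene of CHOP, was at -2.89 (SE 0.455) from 9 counts over the inhibitor and 72 over the DMSO libraries. It passed the filter on low counts through the DMSO libraries alone, so it had to differ, and its place among the 5 carries no weight. With a minimum mean count of 50 it was not tested. ATF3 and XBP1 were at -2.29 and -1.04. CEBPB, a partner of ATF4, was at -1.0 (SE 0.193), and its call was lost without any 1 of the inhibitor libraries (adjusted p = 0.0559 to 0.0714). FOXO1 and FOXO3, factors that act on SESN3, were at -0.14 and -0.21 and not called. HIF1A, the hypoxia factor gene, was at -0.23 (SE 0.12, adjusted p = 0.305), and NR3C1, the glucocorticoid receptor gene, at -0.35 (SE 0.161, adjusted p = 0.245).

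Other targets of the signals known to induce these brakes fell in unequal numbers. Of 16 other ATF4 targets 9 fell and none rose (median log2 fold change -0.68), where 1.92% of all tested genes were lower. The calls were led by CHAC1 at -2.70, CTH at -2.10, TRIB3 at -1.72 and NUPR1 at -1.37. ATF5 went the other way from these falls, with higher values in every inhibitor library (0.55, SE 0.152, edgeR adjusted p = 0.061). The list had 1 gene called higher by DESeq2, with library totals only, no filter, the GC trend removed or quality weights. It also had 1 called higher without DMSO 1 and without DMSO 3. TRIB3 had 116 ± 4.64 CPM with inhibitor and 382 ± 75.1 CPM with DMSO. Of 10 hypoxia-induced targets, a group in which DDIT4 is often counted, VEGFA alone fell, at -0.51 (SE 0.114), and the median was -0.0038. Its call was lost without DMSO 2 or any 1 inhibitor library (adjusted p = 0.0984 to 0.151) and with the replicate block (0.0505). PFKFB4 was at 0.53 (SE 0.173, edgeR adjusted p = 0.105), with higher values in every inhibitor library. Of these targets 1 was called higher with the GC trend removed, without DMSO 1 and without DMSO 3, and 2 with quality weights. Over all tested genes 6.43%, 3.76%, 21.9% and 23.2% were called in these fits.

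Of 6 glucocorticoid-induced targets, another setting in which DDIT4 rises, 3 fell, against that same 1.92%. TSC22D3, the gene of the anti-inflammatory protein GILZ, was at 10.0 ± 1.17 CPM with inhibitor and 23.9 ± 5.79 CPM with DMSO (log2 fold change -1.24, SE 0.186, edgeR adjusted p = 0.00194). PER1, a clock gene, was at -0.95 and DUSP1, a phosphatase gene, at -0.65, both calls lost without any 1 of the inhibitor libraries. FKBP5, a sensitive glucocorticoid target, was at 0.42 (SE 0.143, edgeR adjusted p = 0.119) and NFKBIA at 0.39 (SE 0.137, adjusted p = 0.126). Both had higher values in every inhibitor library. Of this list 1 gene was called higher with quality weights and 1 without DMSO 3. In these fits 23.2% and 21.9% of all tested genes were called.

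The list of FOXO-induced targets does not include SESN3. Of its 8 tested genes, BCL6 and FBXO32 fell, at -0.90 each, and the median was -0.43. Again 1.92% of all tested genes were lower. TXNIP had the largest absolute change of the 8, in the other direction and from low counts, with a log2 fold change of 0.97 and no overlap between groups (SE 0.284, edgeR adjusted p = 0.0736). The call of BCL6 was lost without inhibitor 2 or 3 and that of FBXO32 without any 1 of the libraries but DMSO 3. Over these 4 target lists and 1 more that is not described here, 19 of 52 tested genes fell and none rose, or 36.5% called against 3.87% of all tested genes. The number was 11, 9 and 10 without inhibitor 1, 2 and 3, and 32 without DMSO 3, with 4 of them higher. Of all tested genes 1.1%, 0.87%, 1.32% and 21.9% were called in these fits. These lists were written with results of the data known and were not tested as sets.

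**Figure D4:**
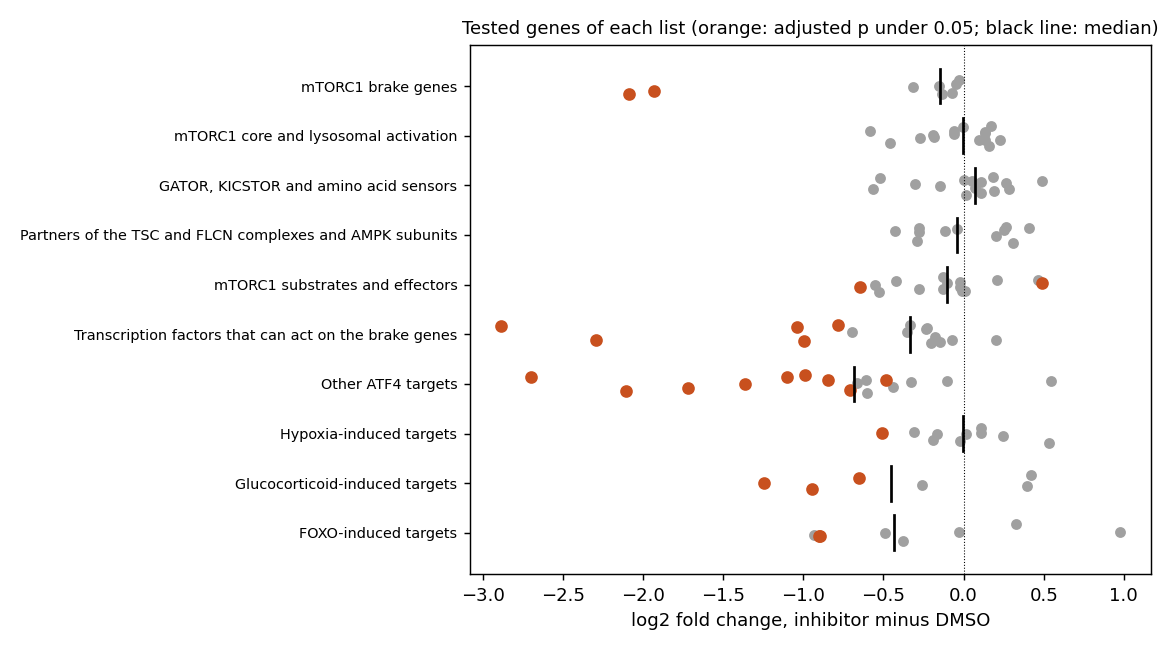
Log2 fold change, inhibitor minus DMSO, of the tested brake genes and of each list described (horizontal axis; 1 point per gene, with vertical scatter for legibility only; orange for an edgeR adjusted p under 0.05; black line for the median). SESN2 and DDIT4 lie near -2 beside the 6 other brake genes, and the 4 mTORC1 pathway lists centre on 0 with 2 orange points, while 9 of 16 ATF4 targets are orange and to the left.

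**Figure D5:**
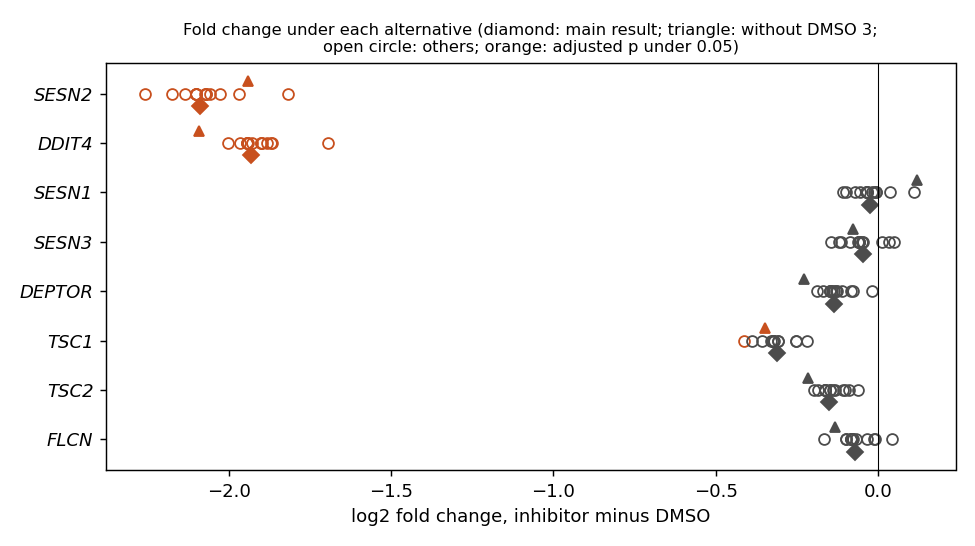
Log2 fold change of the 8 tested brake genes as reported (diamond), without DMSO 3 (triangle) and under the other alternatives (open circles); orange marks an adjusted p under 0.05. SESN2 stayed between -2.26 and -1.82 and DDIT4 between -2.09 and -1.70, always orange, while TSC1 is orange in 2 of 15 alternatives.

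SESN2 and DDIT4 were called in each of the 15 alternatives, which differed widely in how many of all tested genes they called. These shares were 3.9% with DESeq2 size factors, 4.44% with library totals only, 5.32% with no filter on low counts and 4.32% with a mean count of at least 50. They were 5.3% with DESeq2, 3.96% with limma-voom, 23.2% with its quality weights, 2.92% with a replicate block and 6.43% with the GC trend removed. Leaving out a library gave 1.1%, 0.87% and 1.32% without inhibitor 1, 2 and 3, and 3.76%, 1.63% and 21.9% without DMSO 1, 2 and 3. Both genes thus passed also where the fewest genes did. Across them the adjusted p ran up to 0.00111 for SESN2 and up to 0.00163 for DDIT4, each without inhibitor 2. Of 8 mesenchymal markers, checked against the fibrosarcoma label, 7 were tested and none was called. Their counts over all 6 libraries ran from 17 for NT5E, 206 for S100A4 and 665 for CD44 to 411074 for VIM. Of 8 markers of other cell types 5 had no count in any library, and the highest, PECAM1, had 85 counts over all 6.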

How the data were processed

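RNA of the 3 inhibitor and 3 DMSO libraries was read as PCR amplicons of the Ion AmpliSeq Transcriptome panel by Ion Torrent Proton sequencing, per the labels' protocols. One short amplified fragment stands for each gene, so counts are not comparable between genes, and no molecular identifiers are named. Raw counts were deposited by the authors per gene symbol, 1 file per library, unnormalized. HTSeq, DESeq2 1.20.0 and hg19 appear in the submitters' processing notes without roles. The aligner was not given in the sources read.

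The test was edgeR 4.0.16 in R 4.3.3 on an intercept and the group. Genes passed filterByExpr (minimum count 10, minimum total 15), which left 11216 of 20683. TMM scaled the libraries, and the quasi-likelihood p was adjusted by Benjamini-Hochberg, with a threshold of 0.05. The SE is the absolute log2 fold change over the square root of F. The 95% intervals use it with the total degrees of freedom of the test, residual and prior together. Log2 CPM had a prior count of 2. No 2 libraries of a group agreed within sampling noise (chi-square per degree of freedom 5.17 to 36.7), so none was taken for a repeat deposit of another. PCR alone could give such values, and replicate status rests on the series' word that they are biological. If they are not separate cultures, p-values measure technical spread only.

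Alternatives were DESeq2 size factors, library totals only, no filter, a minimum mean count of 50, limma-voom (limma 3.58.1) with and without library quality weights, the DESeq2 1.42.0 test, a replicate block, removal of each library's GC trend (loess span 0.5, GENCODE transcripts, 98.9% of tested genes matched) and leaving out each library. The edgeR, DESeq2 and limma fits were tested on simulated counts. Named genes were all brake genes, up to 4 called genes per list with the largest change, ATF4, MTOR, RPTOR, RHEB, TBC1D7, FNIP1 and FNIP2, and the 5 nearest profiles of each called brake gene. FOXO1, FOXO3, HIF1A, NR3C1, FKBP5, NFKBIA, PFKFB4, ATF5, TXNIP, VIM, S100A4, CD44, PECAM1 and NT5E were named after their values were seen. The members and lists were chosen with earlier results of these data known. Upstream sequences are from RefSeq, matched by symbol for the 8 genes examined, all brake genes but DEPTOR. One transcription factor and the list of its targets are not reported here.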

Additional observations from a re-analysis of the deposited data

How the results depend on the processing

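SESN2 and DDIT4 kept direction and call under all 15 alternatives, and the number of brake genes called was 2 or, without DMSO 3 and with library quality weights, 3. TSC1 passed with quality weights at -0.41 and, over the fits that leave out 1 library, lay between -0.39 and -0.22, passing without DMSO 3. Values near 0 changed sign: SESN1 was at 0.036 with library totals only and 0.11 with quality weights, and between -0.11 and 0.12 with 1 library left out. SESN3 was at 0.012 with library totals only and between -0.14 and 0.05 with 1 library left out, with positive values of 0.049 without inhibitor 3 and 0.032 without DMSO 2. FLCN lay between -0.17 and 0.044 with 1 library left out, the latter without inhibitor 1. The number of changed genes was 434 (219 higher, 215 lower), and 498 with library totals only (335 higher, 163 lower), 831 with no filter, 714 with the GC trend removed, 2606 with quality weights and 99 to 2496 with 1 library left out. The 56 pathway genes had 2 calls, and 1 with library totals only, 9 with no filter, 6 with DESeq2, 14 with quality weights and 0 to 14 with 1 library left out. The 52 target genes had 19, and 33 with quality weights and 9 to 32 with 1 library left out. The causes were not tested. The replicate block gave 328 changed genes, 0 pathway genes and 17 target genes, and left SESN2 at -2.07 and DDIT4 at -1.90; EIF4EBP2 and TFEB were at adjusted p = 0.0762 and 0.0577 with it. Same-numbered libraries did not deviate together (Pearson r -0.0414, -0.0378 and -0.0882 across genes), and no library correlated best with the one of its own number. DDIT4L had too few counts for a fold change. Of the tested brake genes DEPTOR had the fewest counts, 14 to 27 per library.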
